A study of Homo sapiens with 6 samples.

Results

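The comparison described here set the 2 libraries numbered replicate 1 (siControl and siSRPX2-1) against the 2 numbered replicate 3, which together are 4 of the 6 libraries of the study. Both replicate 2 libraries were left out of the test, and their values are given beside it. The libraries were assigned by the replicate numbers in their labels. This pair of numbers was chosen by the read counts themselves, since same-numbered libraries were already known to deviate together, so the calls below describe the 4 libraries and are no independent evidence that a replicate number matters.

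The RNA came from TPC1, a human papillary thyroid carcinoma line, transfected with a control siRNA (si-Control in the labels, siControl here) or with an siRNA against SRPX2, which encodes a secreted sushi-repeat protein (si-SRPX2 in the labels, siSRPX2-1 in the methods and here). The genotype label is WT for siControl and SRPX2 knockdown for siSRPX2-1. All 6 libraries share the labels for line, treatment (adipogenic differentiation) and time (day 2), and DMEM is named as medium. The methods of the study give RPMI medium for this line, a harvest before day 2 and no adipogenic treatment, so the culture conditions of these libraries cannot be settled from the sources used here. The methods call the samples of a group biological repeats, but no source says whether libraries of different groups with one number share a culture, a day or a run, and the p-values measure only the spread between these libraries.

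The libraries held between 63824315 and 75828542 counted reads. SRPX2 itself had few reads and stayed under the expression limit: 243 in siControl replicate 1, 140 in siSRPX2-1 replicate 1, 308 in siControl replicate 3 and 263 in the library labelled siSRPX2-1 replicate 3. After normalization that library, at 3.84 CPM (counts scaled to library size), lay at the level of siControl replicate 1, at 3.81 CPM, and its counts were the closest to its same-numbered siControl library of the 3 pairs (chi-square per gene 17.6, against 53.2 for replicate 2 and 67.0 for replicate 1). Between replicates 1 and 3 the same statistic was 160 within siControl and 116 within siSRPX2-1. Replicate 2 lay further off. It gave 356 against replicate 1 and 461 against replicate 3 within siControl, and 352 and 355 within siSRPX2-1. On the first principal component of the 4 libraries, which held 64.2% of the variance, the replicate 3 libraries lay together at 21.3 and 21.5, while siControl replicate 1 lay at −28.1 and siSRPX2-1 replicate 1 at −14.7. Genes of the mitochondrial genome took 4.94% and 4.37% of the reads in replicate 1 and 4.68% and 4.58% in replicate 3, so neither replicate was set apart by that share. PAX8 and FOXE1, transcription factors of thyroid follicular cells, were present in all 6 libraries, whereas TG, which encodes thyroglobulin, had 79 to 148 reads.

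A pair of well-studied programmes recurs in the results. In low oxygen the prolyl hydroxylases of the EGLN family no longer mark the alpha subunits of the hypoxia-inducible factors (HIF) for destruction through VHL, and HIF then binds a short DNA element and raises genes for glycolysis, glucose uptake, mitophagy and blood vessel growth. The integrated stress response works through translation of ATF4, a transcription factor that raises genes for amino acid synthesis, amino acid uptake and tRNA charging when amino acids run short or proteins misfold.

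Of the 31348 genes in the table, 13317 had a mean FPKM (fragments per kilobase of transcript, scaled to library size) of at least 0.5 over the 6 libraries and entered the test. In an edgeR quasi-likelihood fit with the siRNA group as covariate and Benjamini-Hochberg adjustment over all tested genes, 1455 genes (10.9%) were higher in replicate 1 and 1392 (10.5%) were lower at an adjusted p under 0.05. A fold change over 2 was reached by 199 of the higher genes (1.49% of those tested) and by 184 of the lower ones (1.38%), and the median of all tested genes was −0.01 on the log2 scale. Both replicate 1 libraries lay on the same side of both replicate 3 libraries, without overlap in CPM, for 8085 genes (60.7%). With 2 libraries against 2 an exact permutation test of a single gene cannot go below 0.333, so the calls rest on the spread that edgeR pools over genes. The difference between replicates 1 and 3 was of one sign in siControl and in siSRPX2-1 for 2831 of the 2847 called genes, which the additive fit favours by its construction, so that this count supports nothing. Over all 13317 genes the differences in the 2 siRNA groups, which share no library, had a Pearson correlation of 0.496 and a Spearman correlation of 0.573, as a description across genes, which are not independent replicates.

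**Figure D1:**
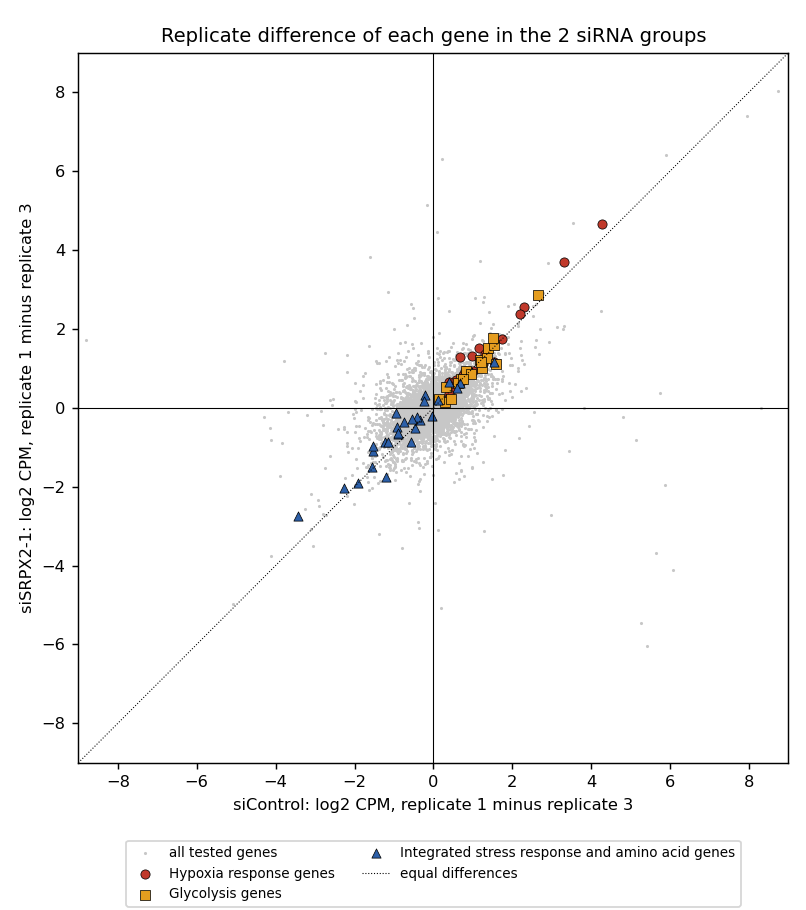
Difference in log2 CPM between replicate 1 and replicate 3 for each of the 13317 tested genes, in siControl (horizontal axis) and in siSRPX2-1 (vertical axis), with CPM raised by 0.1 before the logarithm; the 20 hypoxia response, 19 glycolysis and 27 integrated stress response and amino acid genes are coloured. All hypoxia and glycolysis genes lie at the upper right, above 0 in both siRNA groups, and most integrated stress response genes lie in the lower left.

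Upstream bases of some of these genes are printed first, because each programme has a known short DNA element. Promoters were taken from the RefSeq table for GRCh38.p14 as the 250 bases before each start that RefSeq gives. These starts differ from the gene spans of the count table for some genes: of the windows shown, those of ANGPTL4, ANKRD37, PLIN2, PGK1, CHAC1 and ASNS lie inside the table's span of the gene and those of CA9 and AARS1 reach into it. The HIF core motif was searched as ACGTG on both strands, and its capitals read CACGT where it lies on the other strand. It was present in 18.7% of all 27305 promoters, in 24.2% of those of 9378 tested genes, in 10 of the 17 hypoxia response genes that have a promoter in the table (58.8%) and in 7 of 19 glycolysis genes (36.8%). Among genes higher in replicate 1 with a fold change over 2 it was present in 40 of 116 (34.5%), and among the lower genes in 17 of 85. The other form of the core, GCGTG, was present in 6 of 17 hypoxia response genes (35.3%) and in 46.8% of tested genes. These are 5 windows of hypoxia response genes and 1 of PLIN2, with the core in capitals.
CA9: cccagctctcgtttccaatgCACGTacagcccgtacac
ANGPTL4: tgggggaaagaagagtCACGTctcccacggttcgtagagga
BNIP3: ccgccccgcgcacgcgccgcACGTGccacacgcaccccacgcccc
ANKRD37: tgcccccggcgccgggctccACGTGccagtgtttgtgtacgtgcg
EGLN1: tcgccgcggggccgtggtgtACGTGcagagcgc
PLIN2: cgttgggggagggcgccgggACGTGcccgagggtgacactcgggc
They lie at chr9:35673890-35673927 (plus strand), chr19:8363905-8363945 (plus strand), chr10:131982032-131982076 (minus strand), chr4:185396660-185396704 (plus strand), chr1:231422288-231422320 (minus strand) and chr9:19127588-19127632 (minus strand), and the first letter of the motif lies 18, 234, 133, 161, 13 and 120 bases before the start. The glycolytic genes PGK1 and LDHA hold the same core, as follows.
PGK1: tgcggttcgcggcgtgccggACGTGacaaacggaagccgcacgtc
LDHA: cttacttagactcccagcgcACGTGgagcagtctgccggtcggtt
These windows lie at chrX:78104026-78104070 (plus strand) and chr11:18394359-18394403 (plus strand). For the genes that were lower, the C/EBP-ATF response element, which is bound by dimers holding ATF4, was searched as TGATGNAAN on both strands. It was rare, in 3.18% of all promoters and 1.33% of those of tested genes, and was present in 3 of 23 integrated stress response genes, in 2 of 16 cytosolic aminoacyl-tRNA synthetase genes (12.5%), in 6 of 85 lower genes with a fold change over 2 (7.06%), in 4 of 116 higher ones (3.45%), in 1 of 19 glycolysis genes and in none (0) of the 17 hypoxia response genes. The windows of CHAC1, ASNS, ATF3 and AARS1 show it in capitals, read on the other strand in CHAC1 and AARS1.
CHAC1: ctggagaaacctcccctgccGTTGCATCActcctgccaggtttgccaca
ASNS: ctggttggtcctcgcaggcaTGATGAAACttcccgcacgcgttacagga
ATF3: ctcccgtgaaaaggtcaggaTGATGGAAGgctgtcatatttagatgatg
AARS1: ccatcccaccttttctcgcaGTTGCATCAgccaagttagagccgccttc
They lie at chr15:40953241-40953289 (plus strand), chr7:97872448-97872496 (minus strand), chr1:212565196-212565244 (plus strand) and chr16:70289666-70289714 (minus strand). A match of letters is a description and shows no binding, and the counts above carry no test.

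Genes of the hypoxia response were higher in replicate 1 in both siRNA groups. All 20 of the 20 listed genes passed the test and none (0) was lower, beside 10.9% higher and 10.5% lower over all tested genes. Their median was 1.17 on the log2 scale (1.08 in siControl and 1.19 in siSRPX2-1), beside −0.01 for all tested genes. BNIP3, a mitophagy receptor on the outer mitochondrial membrane (chromosome 10, 131966455 to 131982013), was at 525 CPM in siControl and 523 in siSRPX2-1 replicate 1, against 157 and 157 in replicate 3. Within a replicate number the siRNA groups were almost level, and the replicate 2 libraries, at 429.9 and 428 CPM, lay between. The log2 fold change was 1.73 (SE 0.0831, adjusted p = 1.06e-13).

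CA9, the tumour-associated carbonic anhydrase IX on the cell surface (chromosome 9, 35673918 to 35681159), is silent in most cells until HIF is active. It had 113 and 284 reads in the replicate 1 libraries, 0 and 4 in replicate 3, and 34 and 19 in replicate 2. CA9 was thus close to undetected in replicate 3, and its fitted log2 fold change of 6.64 (SE 0.633) rests on 4 reads there.

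EGLN3, the prolyl hydroxylase of HIF that is itself a HIF target, followed the same order with more reads. It was at 27.4 and 33.5 CPM in replicate 1 (siControl first, as in all pairs from here), 2.67 and 2.52 in replicate 3 and 20.2 and 19.8 in replicate 2, an 11.6-fold difference (log2 3.54, SE 0.166). ANGPTL4, a secreted inhibitor of lipoprotein lipase, was at 402 and 573 CPM against 82.1 and 97.3 (log2 2.42, SE 0.0883), the largest increase among genes that met the naming rule. NDRG1, a stress-responsive gene of the NDRG family, was at 417 and 429 CPM against 90.3 and 82.9 (log2 2.28, SE 0.0836). Within each siRNA group the replicate 2 library lay between replicates 1 and 3 for both ANGPTL4 (296 and 451 CPM) and NDRG1 (256 and 258 CPM).

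The remaining members of the hypoxia list moved less, from 0.37 for KDM3A, a histone demethylase, to 1.35 for DDIT4, an inhibitor of mTORC1. PDK1, which restrains entry of pyruvate into the mitochondrion, was at 100.3 and 123 CPM against 45.0 and 42.7 (log2 1.34, SE 0.0924). VEGFA, the main angiogenic growth factor, was among the least changed, at 621 and 741 CPM against 472 and 474 (log2 0.52, SE 0.0910). For 16 of the 20 genes the replicate 2 mean lay between those of replicates 1 and 3, and for 4 it lay below both; LOX, a collagen cross-linking enzyme, was one of these, at 19.6 and 28.5 CPM in replicate 2 against 104 and 116 in replicate 1 and 52.3 and 46.6 in replicate 3. With any single library left out, 18 or 19 of the 20 genes still passed the test.

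**Figure D2:**
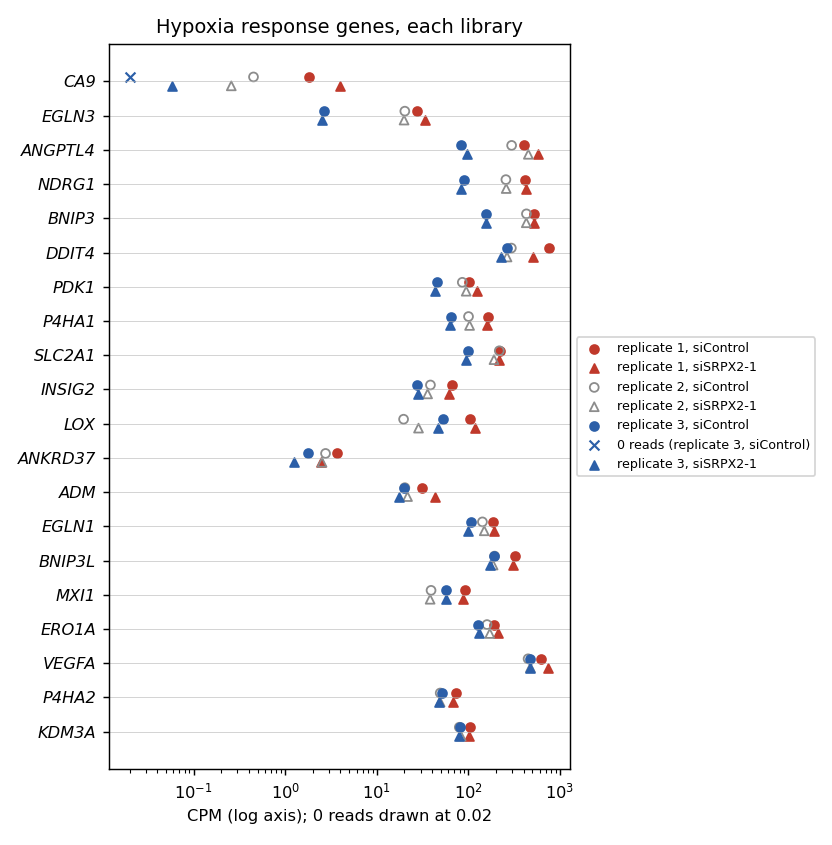
CPM of the 20 hypoxia response genes in each of the 6 libraries, on a log axis and ordered by log2 fold change; circles are siControl and triangles siSRPX2-1, red is replicate 1, blue replicate 3, open grey symbols replicate 2, and the cross marks 0 reads. Each gene's red symbols lie to the right of its blue ones, and the grey symbols lie between them for most genes.

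The components of the HIF pathway differed from gene to gene. HIF1A, the oxygen-regulated subunit, was at 782 CPM in siControl replicate 1 but at 539 in siSRPX2-1 replicate 1, and at 540.1 and 525 in replicate 3. The groups overlapped, and HIF1A did not pass the test (log2 0.28, SE 0.102, adjusted p = 0.0505 from edgeR's quasi-likelihood test). EPAS1, which encodes HIF-2alpha, was higher by 0.48 (SE 0.0776) and EGLN1, the main oxygen-sensing hydroxylase, by 0.86 (SE 0.0754). VHL, at 176 and 173 CPM against 179 and 167, and HIF1AN, the asparaginyl hydroxylase of HIF, at 58.9 and 64.1 against 60.5 and 60.3, overlapped between the replicates. ARNT, the constant partner of the alpha subunits, had a log2 difference of −0.23 (SE 0.0936) that did not pass. HIF1A-AS3, a noncoding RNA whose span overlaps that of HIF1A, had 215 and 137 reads in replicate 1 against 26 and 36 in replicate 3; whether the counting used strand is not given in the sources used here, so its reads cannot be told apart from those of HIF1A. In all, 4 of the 9 tested genes of this list were higher and none (0) was lower. Over all tested genes these shares were 10.9% and 10.5%. The list, which shares EGLN1 and EGLN3 with the hypoxia list, was put together after values had been seen.

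Glycolysis genes moved with the hypoxia genes, and the pathway was covered from glucose uptake to lactate. Of 19 tested genes 17 were higher and none (0) was lower, beside 10.9% higher and 10.5% lower over all tested genes. All 19 were above 0 in both siRNA groups, with a median of 0.90. Leaving out any single library left 15 to 17 of them past the threshold. At an unadjusted p under 0.05 none (0) of the hypoxia or glycolysis genes was lower with edgeR, and DESeq2 called 0 lower in both lists. At the entry, the glucose transporter SLC2A1 (GLUT1), which is also on the hypoxia list, was at 222 and 216 CPM against 98.1 and 92.9 (log2 1.19, SE 0.0755). The hexokinases rose beside it, HK2 from 75.96 and 81.5 CPM in replicate 3 to 198 and 234 in replicate 1 (log2 1.45, SE 0.0770) and HK1 by 1.12 (SE 0.0805).

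The largest change of the pathway was in PFKFB4, a bifunctional enzyme that sets fructose 2,6-bisphosphate, the activator of phosphofructokinase. It was at 109.6 and 108 CPM in replicate 1 and 17.2 and 14.96 in replicate 3 (log2 2.76, SE 0.102), but its span overlaps that of UCN2 on the same strand, so some reads may be shared. Of the phosphofructokinases themselves, PFKP rose by 0.85 (SE 0.0816) and PFKL by 0.41 (SE 0.0791), while PFKM, at 95.4 and 87.4 CPM against 78.1 and 78.8, did not pass. Further down, PGK1, the first ATP-forming enzyme of the pathway, was at 1207 and 1185 CPM against 415 and 396 (log2 1.56, SE 0.0941).

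GAPDH, which many laboratories use as a reference transcript, was not constant between these replicates. It was at 7565 and 7898 CPM in replicate 1 and 4622 and 4761 in replicate 3 (log2 0.72, SE 0.142, adjusted p = 0.000669 from edgeR's quasi-likelihood test), with the replicate 2 libraries at 5879 and 6116. Within a replicate number the siRNA groups differed far less than the replicates did. At the end of the pathway LDHA, which makes lactate, was at 6516 and 6291 CPM against 2809 and 2824 (log2 1.18, SE 0.133), whereas LDHB rose by 0.33 (SE 0.0929) and the pyruvate kinase gene PKM, at 2971 and 3197 against 2687 and 2745 CPM, did not pass (adjusted p = 0.317, edgeR). PGK1, LDHA, ENO2 and GAPDH have processed pseudogenes or overlapping gene models, and reads may have been split between them.

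Further genes known as HIF targets, or linked to them by function, lay outside the lists and were chosen after their values were seen. PLIN2, which coats lipid droplets, was at 969.9 and 817 CPM in replicate 1, 220.1 and 183 in replicate 3 and only 144 and 124 in replicate 2 (log2 2.14, SE 0.0901). HILPDA, an inhibitor of adipose triglyceride lipase, was at 67.2 and 38.7 CPM against 6.82 and 9.63 (log2 2.64, SE 0.193) and shares its span with another tested gene. Of 11 tested lipid droplet and PPAR genes 5 were higher and none (0) lower, beside 10.9% higher and 10.5% lower over all tested genes. Every alternative that kept all 4 libraries also gave 5 higher and 0 lower, although the fit without overlapping genes leaves out HILPDA. In the main fit the called members beside PLIN2 and HILPDA were CPT1A (0.67), PPARA (0.58) and PLIN3 (0.48). PPARG, the master factor of fat cell differentiation, overlapped between the replicates, at 17.4 and 16.0 against 16.9 and 15.7 CPM. The summed CPM of adipocyte markers, nearly all of it PPARG, was 18.6 and 16.8 against 18.9 and 17.2. This sum was scaled to total counted reads only, so its scale differs slightly from that of the PPARG values.

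The enzymes that hydroxylate collagen, which like the EGLN proteins use oxygen and 2-oxoglutarate, were higher in part. Of 10 tested genes 6 were higher (4 to 5 with a library left out), none (0) was lower, and the median was 0.39, beside 10.9% higher over all tested genes. The list was made after values had been seen, and P4HA1 and P4HA2 are also on the hypoxia list. P4HA1, a catalytic subunit of prolyl 4-hydroxylase, was at 162 and 159 CPM against 64.8 and 62.3 (log2 1.33, SE 0.0761), and the lysyl hydroxylase PLOD2 was at 1061 and 1198 against 654 and 623 (log2 0.82, SE 0.0974). P4HB, the shared beta subunit, was at 1008 and 1141 against 954 and 975 CPM and did not pass. GAL3ST1, a sulfotransferase of glycolipids, had 590 and 932 reads in replicate 1 against 83 and 63 in replicate 3 (log2 3.39, SE 0.259), and CA12, a surface carbonic anhydrase related to CA9, changed far less (log2 0.52, SE 0.0950).

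Antioxidant genes, the targets of NRF2, were also mostly higher in replicate 1. Of 21 tested genes 15 were higher and 2 were lower, with a median of 0.46, beside 10.9% higher and 10.5% lower over all tested genes, and the higher genes numbered 9 without siControl replicate 1, 9 without siControl replicate 3, 10 without siSRPX2-1 replicate 3 and 12 without siSRPX2-1 replicate 1. TXNRD1, thioredoxin reductase, was at 922 and 713 CPM against 456 and 403 (log2 0.91, SE 0.0911). TKT, the transketolase of the pentose phosphate pathway, was at 1523 and 1453 against 833 and 816 CPM (log2 0.85, SE 0.0988). The heme oxygenase HMOX1, at 90.8 and 129 against 57.3 and 62.8 CPM, rose by 0.84 (SE 0.0874), and its highest value was in siSRPX2-1 replicate 2, at 224 CPM. SLC7A11, the cystine transporter, went the other way (log2 −1.03, SE 0.0940); it is also a target of ATF4 and belongs to the next list too.

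Genes of the integrated stress response and of amino acid supply were mostly lower in replicate 1. Of 27 tested genes 19 were lower and 4 were higher, with a median of −0.56, against 10.5% lower over all tested genes. CHAC1, which degrades glutathione and is a sensitive target of the ATF4 branch (chromosome 15, 40952962 to 40956512), had 98 and 131 reads in replicate 1, 1259 and 867 in replicate 3 and 180 and 165 in replicate 2. Replicate 3 stood alone at the high end for CHAC1, and replicate 1 was lower than it 8.90-fold (log2 −3.15, SE 0.213, adjusted p = 5.83e-11).

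ASNS, asparagine synthetase, was at 13.5 and 12.9 CPM in replicate 1 and 51.0 and 48.9 in replicate 3 (log2 −1.93, SE 0.124), and the replicate 2 libraries, at 23.8 and 23.6, lay between. Its span overlaps that of AC079781, so some reads may be shared. The 3 enzymes of serine synthesis were all lower. PHGDH, its first enzyme, was at 45.7 and 39.6 CPM against 135 and 113 (log2 −1.54, SE 0.0809), PSAT1 fell by 0.72 (SE 0.0825) and PSPH by 0.79 (SE 0.123). The mitochondrial one-carbon enzymes followed, MTHFD2 with a log2 fold change of −1.06 (SE 0.0853) and SHMT2 with −0.49 (SE 0.0752). So did CTH, which makes cysteine from cystathionine (log2 −1.34, SE 0.230), and PCK2, the mitochondrial PEP carboxykinase (log2 −1.25, SE 0.128).

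Among the transcription factors of the response, ATF4 itself, at 340.2 and 331 CPM against 434 and 414, differed by −0.34 (SE 0.0821). ATF3, which is induced downstream of ATF4, had 114 and 90 reads against 308 and 303 (log2 −1.55, SE 0.321), and DDIT3 (CHOP) fell by 0.72 (SE 0.165). NUPR1, a small stress-induced chromatin protein, was at 19.5 and 18.3 CPM against 95.1 and 74.9 (log2 −2.16, SE 0.109), with lower levels still in replicate 2, 4.33 and 2.86. TRIB3, a pseudokinase target of ATF4 and CHOP, overlapped between the replicates, at 33.9 and 45.1 against 39.5 and 36.0 CPM.

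The 4 members that were higher in replicate 1 were DDIT4, SLC7A5, STC2 and VLDLR. DDIT4 is also on the hypoxia list, and STC2 (a secreted glycoprotein) and VLDLR (a lipoprotein receptor) are known to respond to hypoxia as well. SLC7A5, the large neutral amino acid transporter, was at 1073 and 1039 CPM against 674 and 675 (log2 0.64, SE 0.0936), while its partner SLC3A2 did not pass (log2 0.15, SE 0.0779). The transporters SLC1A5 (−0.56) and SLC7A11 were lower, and SLC1A4, a neutral amino acid transporter outside the list and chosen after its values were seen, had 181 and 216 reads against 975 and 884 (log2 −2.19, SE 0.193). The count of 19 lower genes fell to 11 without siControl replicate 3 and was 14, 14 and 18 without siControl replicate 1, siSRPX2-1 replicate 3 and siSRPX2-1 replicate 1.

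**Figure D3:**
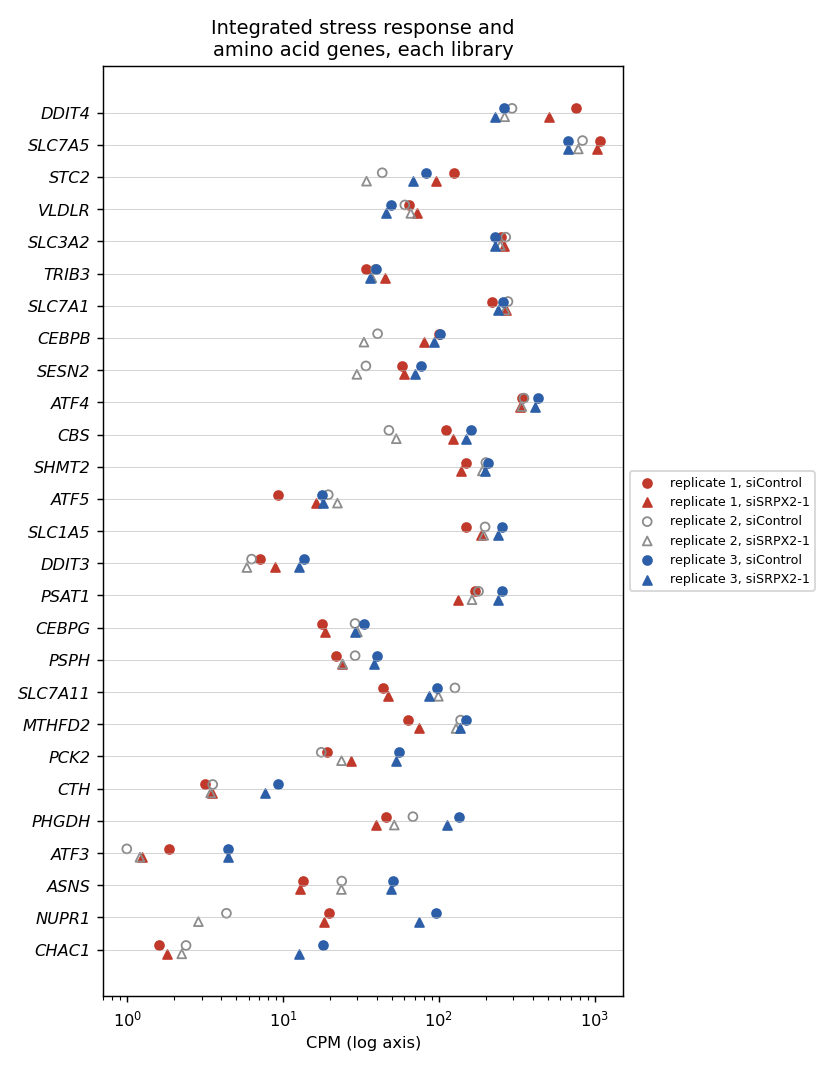
CPM of the 27 tested integrated stress response and amino acid genes in each library, on a log axis and ordered by log2 fold change, with the symbols of the plot of hypoxia genes. The 19 lower genes have their red symbols (replicate 1) to the left of their blue ones (replicate 3), most widely for CHAC1 and NUPR1.

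Cytosolic aminoacyl-tRNA synthetases, which load amino acids onto tRNAs and of which several are ATF4 targets, split by gene. Of 20 tested genes 12 were lower (median −0.35), whereas of the 17 synthetases of the mitochondrion 1 was higher and none (0) was lower (median −0.13, and 0 lower with DESeq2 too). Over all tested genes 10.9% were higher and 10.5% lower. AARS1, the alanyl-tRNA synthetase, was at 122 and 153 CPM against 309 and 284 (log2 −1.12, SE 0.0901). WARS1 (−1.02) and MARS1 (−0.82) were next. A further 7, among them KARS1, VARS1, HARS1, RARS1 and QARS1, did not pass and had log2 differences between −0.06 and 0.05. Replicate 2 lay above both other replicates for 9 of the 20. Both synthetase lists were made after values had been seen, and without siControl replicate 3 the 12 lower genes became 7.

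Other lists follow, and the plot of all lists shows them side by side. Their counts stand beside 10.9% higher and 10.5% lower over all tested genes. Of the endoplasmic reticulum stress genes, 6 of 20 unfolded protein response genes were lower and none (0) was higher, with 7 lower without siSRPX2-1 replicate 1, 5 without siSRPX2-1 replicate 3, 2 without siControl replicate 1 and 1 without siControl replicate 3. HSPA5, the chaperone BiP, was at 636 and 846 CPM against 1049.6 and 1101 (log2 −0.56, SE 0.101). Inflammatory genes were mostly lower, 12 of 21 against 3 higher (median −0.41), and the lower ones numbered 3 to 6 with any one library left out. IL6 was at 100.2 and 93.4 CPM against 166 and 134 (log2 −0.63, SE 0.0773), but at 11.0 and 13.8 in replicate 2. CCL2, a monocyte chemokine, went the other way, at 70.4 and 35.4 CPM against 24.9 and 20.6 (log2 1.14, SE 0.138).

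Sterol and fatty acid genes were lower in part, although 1 cholesterol synthesis gene was higher. The counts of both lists stand beside 10.9% higher and 10.5% lower over all tested genes. Of 24 cholesterol synthesis genes 10 were lower, and these numbered 3 to 5 with any one library left out. INSIG1, a sterol-regulated brake of the pathway, was at 87.7 and 68.9 CPM against 124 and 123 (log2 −0.67, SE 0.0833), while its relative INSIG2, on the hypoxia list, rose by 1.19 (SE 0.110). Of 13 fatty acid synthesis genes 6 were lower and 3 higher. SCD, the stearoyl-CoA desaturase, was at 398 and 416 CPM against 770.0 and 730.1 (log2 −0.89, SE 0.0890), and the elongase ELOVL6 rose by 0.60 (SE 0.0758).

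The counts of p53, clock and TGF-beta genes stand beside 10.9% higher and 10.5% lower over all tested genes. Of 22 p53 targets 10 were lower and 1 was higher, with 1 to 5 lower when any one library was left out. GDF15, a stress cytokine that p53 and ATF4 both raise, was at 6.57 and 6.02 CPM against 19.7 and 18.1 (log2 −1.59, SE 0.155), whereas CDKN1A, the classic p53 target, was at 164 and 144 against 170.2 and 168 and did not pass (adjusted p = 0.192, edgeR). Clock genes rose in part, 6 of 15 with edgeR (3 to 5 with a library left out) and none (0) lower, although limma-voom and the fit without overlapping genes each called 2 lower. PER3 was at 38.9 and 47.4 CPM against 17.0 and 17.8 (log2 1.30, SE 0.126), PER1 rose by 1.15 (SE 0.154) and DBP by 1.02 (SE 0.155). BHLHE40, which is on the clock list and is also a HIF target, rose by 0.93 (SE 0.103). Of 14 TGF-beta targets 7 were higher and 3 were lower, with 4 to 6 higher when a library was left out. CCN2, a matricellular protein, was at 75.8 and 102 CPM against 40.3 and 39.5 (log2 1.13, SE 0.104), whereas LTBP2, a latent TGF-beta binding protein, was at 120.2 and 154 against 264 and 273 (log2 −0.98, SE 0.0832).

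Proliferation genes were highest in replicate 2, and their calls between replicates 1 and 3 depended on single libraries. All 28 genes of the G1/S list and all 28 of the G2/M list had their highest mean in replicate 2. Between replicates 1 and 3, G1/S genes had a median of −0.06, but the siRNA groups disagreed, with a median of −0.22 in siControl and 0.15 in siSRPX2-1. MCM2, a subunit of the replicative helicase, shows this pattern, with 43.4 CPM in siControl replicate 1, 72.2 in siSRPX2-1 replicate 1 and 65.0 and 73.3 in replicate 3. The 7 lower G1/S calls became 0 without siControl replicate 1, siControl replicate 3 or siSRPX2-1 replicate 3 and 8 without siSRPX2-1 replicate 1. Of the 28 G2/M genes 11 were lower and 1 was higher, beside 10.5% and 10.9% of all tested genes, and the lower ones numbered 2, 2, 3 and 8 without siSRPX2-1 replicate 1, siSRPX2-1 replicate 3, siControl replicate 1 and siControl replicate 3. UBE2C, a ubiquitin-conjugating enzyme of the anaphase-promoting complex, was at 31.3 and 29.9 CPM against 45.6 and 49.4 (log2 −0.64, SE 0.114) and 89.1 and 80.7 in replicate 2.

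Replication-dependent histone genes had the lowest median of the lists with at least 5 tested members, −0.84, with 4 of 7 tested genes lower (2 or 3 with a library left out). H2AC6 was at 2.25 and 3.43 CPM against 9.67 and 11.5 (log2 −1.92, SE 0.216), and H2BC12 at 2.69 and 3.61 against 9.48 and 9.79 (log2 −1.63, SE 0.220). The replicate 2 libraries, with the highest S phase genes, held only 2.104 and 1.99 CPM of H2AC6. Histone genes have near-identical copies, so their counts are uncertain. Of 43 cytosolic ribosomal protein genes 1 was higher and none (0) lower. Of 27 nuclear oxidative phosphorylation genes 5 were higher and none (0) lower, and 25 had a log2 fold change above 0 (median 0.16). Over all tested genes 10.9% were higher and 10.5% lower. Of 13 mitochondrially encoded mRNAs none (0) was called in either direction with edgeR (4 higher and 0 lower at an unadjusted p under 0.05, 0 with limma on FPKM and 4 higher with DESeq2). SDHB, an iron-sulfur subunit of complex II, was the most changed of the oxidative phosphorylation genes (log2 0.53, SE 0.0985).

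**Figure D4:**
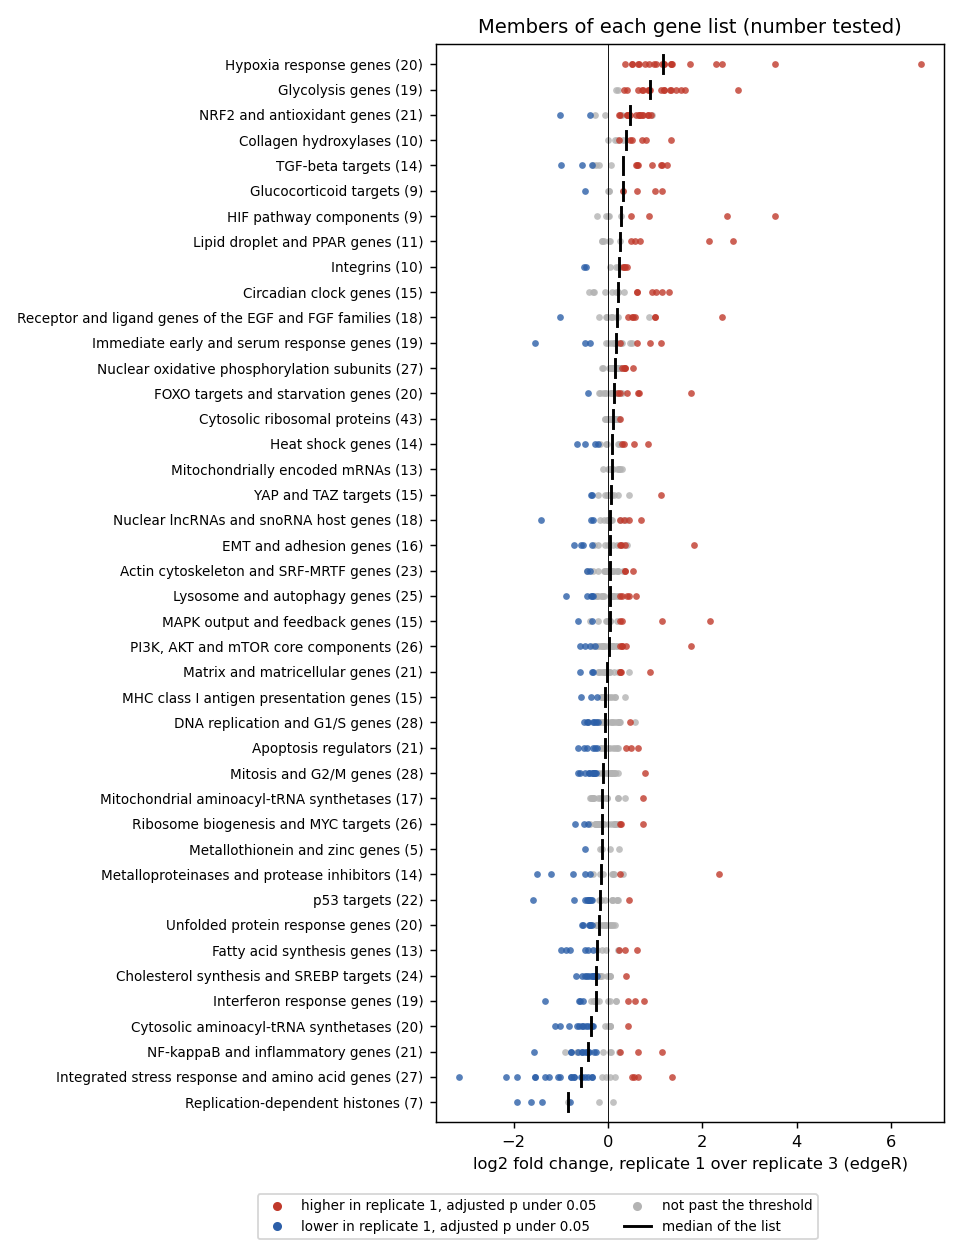
Log2 fold change of each tested member (points) and the median (black bar) for every list with at least 5 tested members, with the number tested in parentheses; red points were higher and blue points lower in replicate 1 at an adjusted p under 0.05, and grey points did not pass. The hypoxia and glycolysis lists lie to the right, at medians of 1.17 and 0.90, and histone, integrated stress response and inflammatory lists lie to the left.

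The counts of further lists stand beside the 10.9% higher and 10.5% lower of all tested genes. Of 18 EGF and FGF family ligands and receptors 7 were higher and 1 lower, of 20 FOXO targets 6 and 1, and of 9 glucocorticoid targets 4 and 1. Of 14 heat shock genes 4 were higher and 4 lower, of 25 lysosome and autophagy genes 5 and 5, and of 19 interferon response genes 3 and 4. With DESeq2 these counts were, in the same order, 6 and 1, 3 and 0, 4 and 1, 5 and 2, 3 and 5, and 1 and 2. Where a list had no call in one direction, the members at an unadjusted edgeR p under 0.05 in that direction numbered 0 for lipid droplet genes, collagen hydroxylases and the unfolded protein response, 1 for the HIF pathway, 2 for clock genes and 4 for mitochondrial synthetases. DESeq2 called 0 in that direction in each of these lists, limma-voom called 2 clock genes and 1 mitochondrial synthetase lower, library sizes only gave 1 HIF pathway gene and 1 mitochondrial synthetase, and the fit without overlapping genes gave 2 clock genes and 2 mitochondrial synthetases. With a mean FPKM of at least 5, 1 HIF pathway gene was called lower.

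PI3K, AKT and mTOR components, the pathway the study was about, gave 5 higher and 4 lower genes of 26 (median 0.02), beside 10.9% and 10.5% of all tested genes. IRS2, an adaptor of the insulin and IGF receptors, stood out at 109 and 119 CPM against 34.4 and 32.8 (log2 1.76, SE 0.0901) and lay at 35.1 and 29.2 in replicate 2. Of 16 tested EMT and adhesion genes 4 were higher and 4 lower, and with a library left out 1 or 2 were higher and 0 to 2 lower. SNAI1, a repressor of E-cadherin, was at 7.78 and 6.06 CPM against 2.15 and 1.76 (log2 1.81, SE 0.270), and its relative SNAI2 was lower (log2 −0.72, SE 0.147). None (0) of the 6 downstream genes that the study names, nor SRPX2, passed the expression limit.

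The 15 genes with the largest increase among those that met the naming rule held several not named above. MMP1, interstitial collagenase, belongs to the list of metalloproteinases and protease inhibitors. Of the 14 tested genes of that list 2 were higher and 5 lower, beside 10.9% and 10.5% of all tested genes. MMP1 was at 18.6 and 26.1 CPM in replicate 1 and 4.46 and 4.13 in replicate 3 (log2 2.35, SE 0.171). Its highest value, however, was in siSRPX2-1 replicate 2, at 98.5. SLCO2B1, an organic anion uptake transporter, was at 206 and 215 CPM against 61.6 and 60.7 (log2 1.78, SE 0.0764), and SLC29A4, a monoamine transporter of the plasma membrane, was at 34.0 and 33.4 against 10.4 and 9.20 (log2 1.78, SE 0.143). In replicate 2 SLCO2B1 lay between, at 76.6 and 79.9 CPM, and SLC29A4 lay below both, at 5.97 and 4.76.

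CKB, the brain-type creatine kinase, rose by 1.80 (SE 0.152), PAQR5, a membrane progestin receptor, by 1.76 (SE 0.137), and KCNE4, a potassium channel subunit, by 1.74 (SE 0.161). CD24, a surface glycoprotein with pseudogene copies, also differed between siRNA groups within replicate 1, at 1223 CPM in siControl and 1754 in siSRPX2-1, against 455 and 468 in replicate 3 and 239.8 and 206 in replicate 2. PDXP, a pyridoxal phosphate phosphatase, differed within replicate 3, at 4.76 and 1.37 CPM against 10.0 and 10.1 in replicate 1, and lost its call without siSRPX2-1 replicate 1 (adjusted p = 0.0508). MAGEA3, a cancer-testis antigen with a near-identical paralogue, completed the 15 (log2 1.62, SE 0.258).

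Among the 15 leading lower genes, C19orf71 had 0 and 0 reads in replicate 1, 229 and 208 in replicate 3 and 122 and 107 in replicate 2. Against a floor of 3 reads over both replicate 1 libraries, its level was at least 147-fold lower there, and it overlaps MFSD12 on the other strand. KRT81, a hair keratin, was at 20.2 and 14.3 CPM in replicate 1 and 169 and 164 in replicate 3 (log2 −3.30, SE 0.0979), with 9.97 and 4.08 in replicate 2. Its near-identical relatives among the hair keratins make the share of its reads uncertain. TMOD1, which caps actin filaments, was at 3.40 and 3.60 CPM against 30.2 and 30.8 (log2 −3.13, SE 0.157), and LGR5, a receptor for R-spondins, at 3.50 and 5.14 against 26.8 and 29.2 (log2 −2.72, SE 0.161). For KRT81, TMOD1 and LGR5 replicate 2 lay on the side of replicate 1, below it, so the replicate 3 libraries were the ones that stood apart.

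PLAU, the urokinase-type plasminogen activator, followed another pattern. It was at 175 and 205 CPM in replicate 1, against 526 and 538 in replicate 3 and 479 and 652 in replicate 2, so that here replicate 1 was the low one (log2 −1.50, SE 0.0857). CSF2, which encodes GM-CSF, fell by 1.56 (SE 0.211), MCOLN3, a lysosomal cation channel, by 1.40 (SE 0.147), and SORCS2, a sortilin-family receptor, by 1.36 (SE 0.106). Of the 30 leading genes 27 kept their call in each of the 15 alternatives run that gave them a value. PDXP lost its call in 3 alternatives, where its log2 fold change was 1.43 to 1.94, H2BC5 in 4, with −1.40 to −1.21 (adjusted p up to 0.124), and C19orf71 with DESeq2 (adjusted p = 0.0693).

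**Figure D5:**
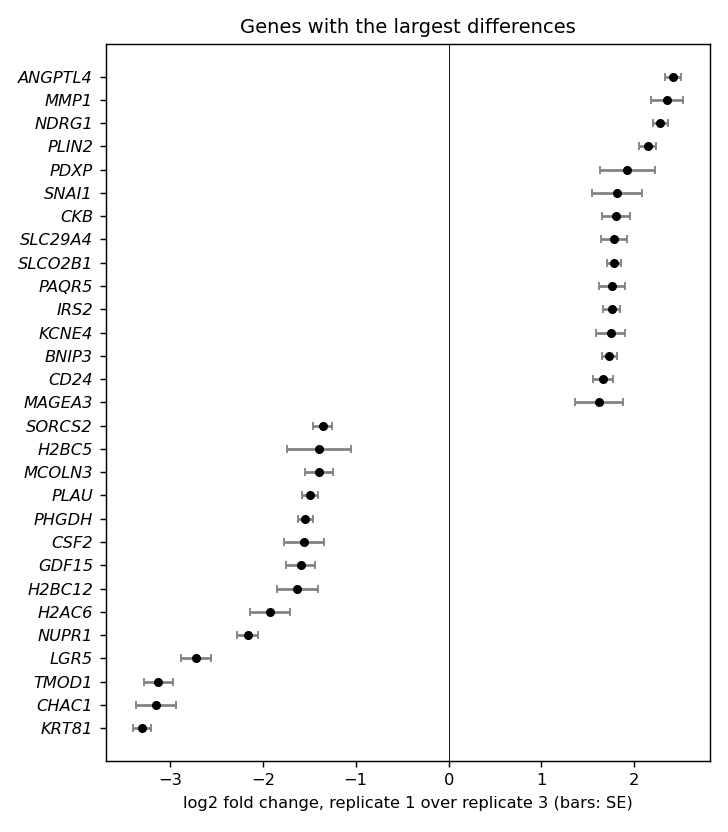
Log2 fold change of replicate 1 over replicate 3 for 29 of the 30 leading genes, with bars of 1 standard error from edgeR; C19orf71, with 0 reads in replicate 1, is left out. ANGPTL4 is at 2.42 on the right and KRT81 at −3.30 on the left.

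Replicate 2 gave no single order for the called genes as a whole. Of the 1455 higher genes its mean CPM lay between replicates 1 and 3 for 591, above both for 394 and below both for 470. Of the 1392 lower genes it lay between for 453, above both for 313 and below both for 626.

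Counts by the KEGG annotation deposited with the table are given for 4 pathways, chosen after their values were seen. In HIF-1 signalling 21 of 70 tested genes were higher and 7 lower, and in glycolysis and gluconeogenesis 17 of 43 were higher and 4 lower. In aminoacyl-tRNA biosynthesis 12 of 43 were lower and 2 higher, and in glycine, serine and threonine metabolism 8 of 23 were lower and 3 higher. Against these stand 10.9% higher and 10.5% lower of all tested genes.

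Marker genes of other cell types were low. Summed over the list, leukocyte markers were at 25.1 and 33.8 CPM in replicate 1 and 21.9 and 25.6 in replicate 3, and endothelial markers at 30.8 and 31.9 against 28.0 and 27.9. Fibroblast markers, of which 6 of 10 were in the table and 1 (LUM) was tested, were at 37.3 and 25.2 CPM against 18.8 and 20.7. The members did not move together. COL1A1 had 588 and 520 reads in replicate 1 against 165 and 167 in replicate 3, and PDGFRB 293 and 269 against 140 and 127. THY1 went the other way, with 36 and 65 reads against 119 and 120, as did PDGFRA, with 0 and 0 against 7 and 4. The part of these differences in the results above was not tested.

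The called genes also differed from the rest in features that the test did not use. The higher genes had a median exonic length of 4807 bases, the lower ones 5705, and all tested genes 4579. With a fold change over 2 the medians were shorter than that of all genes, 3052 for higher and 2580 for lower genes. The median FPKM was 9.46 for higher genes, 4.87 for lower genes and 4.77 for all, but 2.27 and 1.25 for those with a fold change over 2. The median GC content was 49.7% for higher genes, 48.1% for lower genes and 47.9% for all. Of the called genes 10.4% overlapped another tested gene on the same strand, close to 10.5% of the others, but among the 383 with a fold change over 2 the share was 22.7%.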

How the data were processed

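Strandedness, aligner, genome build, annotation and counting step were not given in the sources used here. StringTie 2.1.6, DESeq2 and edgeR are named in the submitters' processing notes. The authors deposited 1 table with whole-number read counts and FPKM values per gene and library, and the methods credit expression estimates to StringTie and ballgown. Of 31348 gene IDs 30496 were found in GENCODE 29, and 30437 of these start within 100000 bases of it, so coordinates are on GRCh38.

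Of the genes in the table, 13317 reached an average of 0.5 FPKM across the 6 libraries and were tested on the deposited counts with edgeR 4.0.16 (TMM, quasi-likelihood, R 4.3.3), with terms for siRNA and replicate number, on 4 libraries, which leaves 1 residual degree of freedom per gene. P-values were adjusted by Benjamini-Hochberg, and standard errors were taken from the F test. CPM values use TMM library sizes, except those of SRPX2 and the summed marker CPM, which use total counted reads. The script was tested on simulated data. Named genes are the 15 largest increases and 15 largest decreases among the 1998 called protein-coding genes averaging 2 FPKM or more across the 4 libraries, one sign in both siRNA groups, no overlap in CPM between the replicates and no tested gene overlapping on the same strand, and, from each list, the 4 with the lowest p. Further list members and genes were named after their values were seen. Some list members are not reported here. The comparison, lists and named genes were chosen with earlier results of these data known. Alternatives were RLE factors, library sizes only, DESeq2 1.42.0, limma 3.58.1 on counts (voom) and on log2(FPKM + 1) and log2(FPKM + 0.1), other filters, no siRNA term, all 6 libraries, and each library left out in turn, in a fit of the other 5.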

Additional observations from a re-analysis of the deposited data

Results flagged for a closer look

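FBN1, which encodes the microfibril protein fibrillin-1, was lower in replicate 1 in siControl, while the siSRPX2-1 libraries were close to each other. It was at 51.5 CPM in siControl replicate 1 and 81.9 in siControl replicate 3, but at 84.9 and 83.6 in the siSRPX2-1 libraries of the same numbers. The log2 difference between replicate 1 and replicate 3 was −0.67 in siControl and 0.023 in siSRPX2-1, which is why it is given here, as the signs differ although the second value is near 0. The difference between the siRNA groups was not tested, since 4 libraries leave no degrees of freedom for it.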

How the results depend on the processing

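No paired analysis was possible because the replicate number is itself what was compared, and the siRNA group is already a term of the fit. The number of called genes depended on the processing more than their direction did: of 161 named genes 141 passed the threshold, 66 of these passed in every alternative, and 0 changed sign in any. The 1455 higher and 1392 lower genes became 921 higher with library sizes only, which left 1514 lower and moved the higher share of the calls from 51.1% to 37.8%. They became 986 and 791 with DESeq2 (113 lower with a fold change over 2), and 717 and 1017 with limma on log2(FPKM + 1), a higher share of 41.3%, where 78 higher and 48 lower genes had a fold change over 2. With limma on log2(FPKM + 0.1) they were 577 and 728, without an expression filter 485 and 330, and without the siRNA term 822 and 663 (108 lower with a fold change over 2). With a mean FPKM of at least 5, which tests fewer genes, they were 776 and 817, of which 55 and 34 had a fold change over 2. Leaving out 1 library at a time gave 386 to 911 higher and 232 to 835 lower genes, and 123 to 185 higher and 76 to 167 lower with a fold change over 2, with the lowest count for higher and lower genes without siControl replicate 3, where 595 of the 2847 called genes were called again. Without genes that overlap a tested gene, an alternative chosen after seeing the data, they were 1521 and 1489. For 3 genes that did not pass the threshold the sign turned. PPARG (0.03) was −0.018 with library sizes only, −0.0088 and −0.011 with limma on log2(FPKM + 1) and log2(FPKM + 0.1), and ran from −0.085 to 0.16 when a library was left out. FOXE1 (0.03) was −0.026, −0.017 and −0.018 in the first 3 of these, −0.014 with a mean FPKM of at least 5 and −0.12 to 0.18 when a library was left out. MT1X (0.23) was −0.45 to 0.96 when a library was left out. Apart from fewer genes or libraries, the cause of these changes was not tested. The comparison has 2 libraries a side and 1 residual degree of freedom, and depth was not varied.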
